A study of Mus musculus with 16 samples.

Results

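Transcripts of fat cell hormones and of proteins that store and release fat were followed in mouse quadriceps muscle. The 8 genes named for this purpose were Adipoq, Retn, Lep, Cfd, Plin1, Fabp4, Cidec and Lipe, matched by their symbols to the annotation of the array. They were chosen with earlier results of these data known. Of the 17097 genes with a probe set that carried only their own symbol, 5 belonged to the 8: Adipoq, Retn, Lep, Fabp4 and Lipe. Cfd, Plin1 and Cidec matched no such probe set and were not analysed here, so that the 2 droplet coat and fusion proteins of the set were not read.

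RNA came from 16 mice, with 1 array per mouse and 4 mice in each of 4 groups: Mfn2 KO mice at 22 months (KO old), control mice at 22 months (control old), Mfn2 KO mice at 6 months (KO young) and control mice at 6 months (control young). The product of Mfn2, mitofusin 2, sits in the outer membrane of mitochondria and joins them to each other. All mice ate standard chow, and the muscle was frozen after excision. The strain, and the promoter or cell type in which Mfn2 was deleted, are not given in the sources used here, and the control genotype is given only as control. Families marked A and B held only old mice, C and D held only young mice, and mice marked Other were in all 4 groups.

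White fat cells store triglyceride in 1 large droplet and secrete hormones into the blood. Adiponectin (Adipoq) acts through its receptors in muscle and liver on fatty acid oxidation and insulin action, leptin (Lep) reports fat stores to the brain, and resistin (Retn) is secreted by white fat cells in the mouse. In the fat cell, Plin1 coats the droplet, Cidec enlarges it, Lipe (hormone-sensitive lipase) cleaves its diglycerides and Fabp4 carries the fatty acids that are released. A dissected muscle can hold fat cells between and around its fibres, and in such bulk tissue fewer fat cells and less RNA per fat cell cannot be told apart.

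Adipoq, Retn and Lep are printed here by the 250 bases before their transcription start, since these 3 hormone genes had the largest differences between genotypes at 6 months. The sequences are RefSeq's, in the build GRCm38.p6, read 5′ to 3′ on the strand of the gene. Adipoq lies at chr16:23146286-23146535 on the plus strand, Retn at chr8:3655520-3655769 on the plus strand and Lep at chr6:29059971-29060220 on the plus strand. Capitals mark letters of any of 5 motifs searched on both strands.
Adipoq: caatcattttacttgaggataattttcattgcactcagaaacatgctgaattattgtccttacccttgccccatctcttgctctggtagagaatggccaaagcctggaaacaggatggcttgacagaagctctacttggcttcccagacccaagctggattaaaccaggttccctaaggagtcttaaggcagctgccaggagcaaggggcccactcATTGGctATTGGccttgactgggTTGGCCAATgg
Retn: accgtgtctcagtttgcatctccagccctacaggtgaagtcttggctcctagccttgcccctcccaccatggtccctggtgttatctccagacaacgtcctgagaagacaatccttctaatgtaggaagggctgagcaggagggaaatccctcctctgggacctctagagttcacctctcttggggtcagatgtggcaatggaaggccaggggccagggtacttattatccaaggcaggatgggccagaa
Lep: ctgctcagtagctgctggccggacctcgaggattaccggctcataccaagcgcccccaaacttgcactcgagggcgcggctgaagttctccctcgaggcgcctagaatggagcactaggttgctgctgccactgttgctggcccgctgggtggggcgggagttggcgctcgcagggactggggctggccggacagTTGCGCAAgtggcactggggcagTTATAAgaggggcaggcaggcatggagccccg

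The motifs were the C/EBP dyad TTGCGCAA, the looser form TTGNNCAA, the CCAAT box (CCAAT), the nuclear receptor core AGGTCA and the TATA box (TATAA). The Lep window held TTGCGCAA at -55 to -48, which is also a match to TTGNNCAA, and TATAA at -31 to -27, overlapped by a match on the other strand at -32 to -28. TTGCGCAA occurred in 0.164% of 32851 RefSeq promoter windows of this length, and TATAA in 22.8%. The Adipoq window held TTGGCCAA, a match to TTGNNCAA, at -11 to -4, and CCAAT at -7 to -3, at -34 to -30 and at -27 to -23, of which the first overlaps the TTGGCCAA and the others lie on the opposite strand. TTGNNCAA occurred in 5.65% of the windows and CCAAT in 33.9%. None of the 5 motifs was found in the Retn window, and AGGTCA, which occurred in 14.0% of the windows, was found in none of these 3.

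The values are RMA signals on the log2 scale, in which a difference of 1 is a doubling. The median over probe sets lay between 4.58 and 4.65 in the 16 arrays. Arrays of numbers 1 and 2 had a wider spread of signals than those of numbers 3 and 4, with mean SDs of 1.90, 1.93, 1.72 and 1.80 for numbers 1 to 4, so differences are also given within numbers 1 and 2 and within numbers 3 and 4 where they diverge. The 11 muscle fibre markers, among them Acta1 and Ckm, had a mean between 12.0 and 12.3 in every array, and the 5 skin markers a mean between 4.30 and 4.66, near the median of all probe sets. Mfn2 averaged 7.74 ± 0.96 in KO old, 8.68 ± 0.36 in control old, 8.45 ± 0.07 in KO young and 8.80 ± 0.60 in control young muscles (SD, n = 4 each). At 22 months the KO values (6.32 to 8.32) lay below all control values (8.34 to 9.18), while at 6 months the KO values (8.38 to 8.54) lay inside the control range (8.03 to 9.45), so that this probe set does not separate the genotypes as labelled in young mice. Whether its probes lie in the deleted part of the gene is not given in the sources used here.

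Adipoq, at chr16:23146536-23157968 in GRCm38.p6 and read by the probe set 1422651_PM_at, varied most of the measured genes. Its level for numbers 1 to 4 was 8.54, 8.46, 5.16 and 8.60 in KO old muscles, and 8.80, 6.96, 5.75 and 5.52 in control old muscles. It was 4.58, 5.24, 4.68 and 6.70 in KO young muscles, and 7.15, 8.78, 8.42 and 8.58 in control young muscles. All KO young muscles lay below all control young muscles, 3 of the KO old muscles lay within the control young range, and the control old muscles were spread over nearly the whole range. The lowest and the highest array differed by 4.22 on the log2 scale, or 18.6-fold.

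Retn (chr8:3655770-3659818, 1449182_PM_at) followed a like order on a narrower scale. Its level was 7.69, 7.37, 6.81 and 7.34 in KO old muscles, and 8.12, 6.90, 6.91 and 6.39 in control old muscles. It was 6.18, 6.17, 6.29 and 6.59 in KO young muscles, and 6.54, 7.74, 7.81 and 8.11 in control young muscles. The KO young muscles were the lowest group, overlapping the control young group only through KO number 4 and control number 1, and every KO old muscle was above every KO young muscle. The whole range was 1.95, or 3.87-fold.

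Lep (chr6:29060221-29073876, 1422582_PM_at) gave a signal below the median of its array in all 16 arrays. Its level was 3.44, 4.01, 3.39 and 4.58 in KO old muscles, and 3.70, 3.43, 3.32 and 3.47 in control old muscles. It was 3.49, 3.23, 3.33 and 3.37 in KO young muscles, and 3.52, 4.56, 3.53 and 3.62 in control young muscles. The spread came from 3 muscles above 4, KO old numbers 2 and 4 and control young number 2, while the remaining 13 lay between 3.23 and 3.70. The KO young values were all below the control young values, by as little as 0.03 in number 1.

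Lipe (chr7:25379527-25398486, 1422820_PM_at) had levels of 7.18, 7.19, 6.47 and 6.78 in KO old muscles, and 7.26, 6.77, 6.82 and 6.48 in control old muscles. It had 6.82, 6.72, 6.45 and 6.77 in KO young muscles, and 6.85, 7.53, 6.78 and 6.99 in control young muscles. The groups overlapped in every comparison, and control young number 2 was the highest of the 16. A second probe set, 1432180_PM_at, lay below the median of its array throughout and entered only the alternative with the mean of all probe sets.

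Fabp4 (chr3:10204342-10208616, 1451263_PM_a_at) was nearly level. It had 11.22, 11.13, 10.96 and 11.15 in KO old muscles, and 11.21, 10.99, 11.07 and 11.03 in control old muscles. It had 11.07, 10.997, 11.12 and 11.10 in KO young muscles, and 11.004, 11.24, 11.11 and 11.26 in control young muscles. The whole range was 0.30, or 1.23-fold, and the groups overlapped throughout. Its probe set 1417023_PM_a_at had a range of 0.42, while 1424155_PM_at, the dimmest of the 3, had a range of 1.84 and higher group means in KO young (6.02 ± 0.32) than in control young muscles (5.64 ± 0.62, SD, n = 4 each), opposite to both other probe sets. Besides fat cells, macrophages and capillary endothelium are known to express Fabp4.

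**Figure D1:**
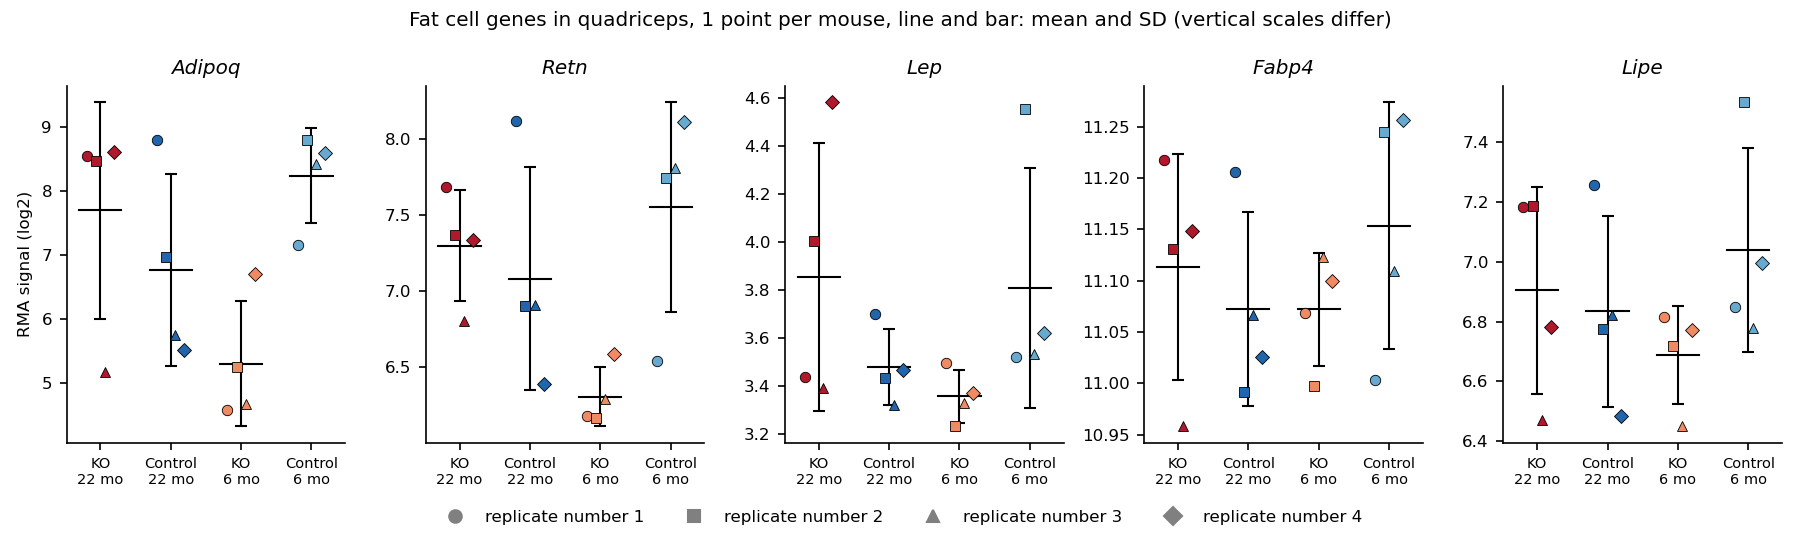
RMA signal (log2) of Adipoq, Retn, Lep, Fabp4 and Lipe in each of 16 quadriceps muscles, by group; each point is 1 mouse, its shape the replicate number, and the line and bar are the mean and SD of 4 mice. Adipoq spans 4.58 to 8.80 and is lowest in KO mice at 6 months, while Fabp4 spans 10.96 to 11.26 (vertical scales differ).

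The group means of Adipoq were 7.69 ± 1.69 in KO old, 6.76 ± 1.50 in control old, 5.30 ± 0.98 in KO young and 8.23 ± 0.74 in control young muscles (SD, n = 4 each). Ranked from high to low the order was control young, KO old, control old and KO young, and each neighbouring pair in it differed by less than the larger of its SDs. Retn had the same order, with 7.30 ± 0.36 in KO old, 7.08 ± 0.73 in control old, 6.31 ± 0.19 in KO young and 7.55 ± 0.69 in control young muscles (SD, n = 4 each), and only the step between control old and KO young exceeded the larger SD of the pair. Lipe had it too, with 6.90 ± 0.35 in KO old, 6.83 ± 0.32 in control old, 6.69 ± 0.16 in KO young and 7.04 ± 0.34 in control young muscles (SD, n = 4 each), and none of its steps exceeded that spread. In Lep the KO old mean of 3.85 ± 0.56 and the control young mean of 3.81 ± 0.50 were above the control old mean of 3.48 ± 0.16 and the KO young mean of 3.36 ± 0.11 (SD, n = 4 each). The Fabp4 means lay between 11.07 and 11.15, and in both genes no step exceeded the larger SD.

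The first comparison set muscles labelled Mfn2 KO against control muscles in young mice. Adipoq was 7.64-fold lower in KO than in control muscles at 6 months, a difference of -2.93 (SE 0.81, 95% interval -4.65 to -1.22), and was lower in 4 of 4 replicate numbers. Retn was 2.37-fold lower, a difference of -1.25 (SE 0.35, interval -1.99 to -0.50), also in 4 of 4 numbers. Neither passed the test over all genes. With limma and Benjamini-Hochberg adjustment over 17097 genes, the adjusted p was 0.99996 for each, and 0 genes of the whole table (0%) were called at an adjusted p under 0.05, with or without the replicate number as a block. At an unadjusted p under 0.05, Adipoq (unadjusted p = 0.00234) and Retn (unadjusted p = 0.00278), 2 of the 5 measured genes, were lower and none was higher, where 0.702% of all genes were lower at that threshold in limma and 1% were higher. All 5 were lower on average, where 47.8% of all genes were higher. Adipoq ranked 7 and Retn 9 by p among the 17097 genes, and 51 and 160 with the replicate block.

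For the other measured genes the interval at 6 months included 0, except that of Lipe with the replicate block (-0.69 to -0.0118). Lep differed by -0.45 (interval -0.98 to 0.08) and was without overlap of the groups, as was Adipoq, where 0.696% of all genes had all KO values below all control values. Lipe differed by -0.35 (interval -0.79 to 0.09) and was lower in 4 of 4 numbers. Without control young number 2 the Lep difference was -0.20 and the Lipe difference -0.19. Fabp4 differed by -0.08 (interval -0.22 to 0.06) and was lower in 2 of 4. Within numbers 1 and 2 the Adipoq difference was -3.06, and within numbers 3 and 4 it was -2.81. For Retn these values were -0.97 and -1.52, and for Lep -0.675 and -0.23.

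At 22 months all 5 measured genes were higher on average in KO muscles, where 48.4% of all genes were. With family in the fit Retn (-0.12), Fabp4 (-0.0134) and Lipe (-0.0678) were lower, and without control old number 4 Retn (-0.0119) and Lipe (-0.0468) were. Lipe was also lower without KO old number 1 (-0.0221) or number 2 (-0.0229). Adipoq was 1.91-fold higher, a difference of 0.94 (SE 0.81, interval -0.78 to 2.65), with 2 of 4 numbers higher. Retn differed by 0.22 (interval -0.53 to 0.96), Lep by 0.37 (interval -0.15 to 0.90), Lipe by 0.07 (interval -0.37 to 0.51) and Fabp4 by 0.04 (interval -0.10 to 0.18). Within numbers 1 and 2 the differences were 0.62 for Adipoq, 0.0155 for Retn, 0.16 for Lep, 0.17 for Lipe and 0.0753 for Fabp4. Within numbers 3 and 4 they were 1.25, 0.42, 0.59, -0.0267 and 0.0070. None of the 5 had an unadjusted p under 0.05 in limma, where 0.602% of all genes were higher and 0.538% lower at that threshold, and 0% were called after adjustment. Without the KO old muscle of number 3, in which Adipoq was 5.16 and Mfn2 6.32, the Adipoq difference was 1.78 (unadjusted p = 0.0202, limma), and without the control old muscle of number 4 it was 0.52. It was 0.39 with family in the fit, and without KO old number 4 the Lep difference was 0.13.

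Age was then compared within each genotype, first in KO mice. In KO mice Adipoq was 5.25-fold higher at 22 than at 6 months, a difference of 2.39 (SE 0.81, interval 0.68 to 4.11), and higher in 4 of 4 numbers. This pooled value joins unlike parts, with 3.59 within numbers 1 and 2 and 1.19 within numbers 3 and 4. In number 3 alone the Adipoq difference was 0.48. Retn was 1.99-fold higher, a difference of 0.99 (SE 0.35, interval 0.25 to 1.74), in 4 of 4 numbers and with no overlap of the groups, which held for 0.924% of all genes. Both had an adjusted p of 0.999943 in limma, where 3 genes of the table (0.0175%) were called, or 0.0234% with the replicate block. At an unadjusted p under 0.05 Adipoq (unadjusted p = 0.00938) and Retn (unadjusted p = 0.0123) were higher in limma, as were 1.34% of all genes, while none of the 5 was lower, against 1.25% of all genes. All 5 were higher on average, as were 47.1% of all genes. With family in the fit the Adipoq difference was 1.66, that of Retn 0.57 and that of Lep 1.02. Lep differed by 0.50 (interval -0.03 to 1.02, with the replicate block 0.02 to 0.98), and by 0.26 without KO old number 4. Lipe differed by 0.22 (interval -0.23 to 0.66), by 0.12 without KO old number 2 and by -0.0601 with family in the fit, and Fabp4 differed by 0.04 (interval -0.10 to 0.18). Within numbers 1 and 2 the differences were 1.35 for Retn, 0.36 for Lep, 0.42 for Lipe and 0.14 for Fabp4. Within numbers 3 and 4 they were 0.63, 0.64, 0.0153 and -0.0585.

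In control mice the difference of 22 against 6 months was -1.48 for Adipoq (interval -3.19 to 0.24) and -0.47 for Retn (interval -1.22 to 0.28), each lower in 3 of 4 numbers. Both pooled values join unlike parts. The Adipoq difference was -0.085 within numbers 1 and 2 and -2.87 within numbers 3 and 4. For Retn these values were 0.37 and -1.31, of opposite sign. In number 1 alone the old control muscle was the higher one, by 1.65 for Adipoq and 1.58 for Retn. Without the control old muscle of number 1 the Adipoq difference was -2.16 (unadjusted p = 0.0134, limma) and the Retn difference -0.82. Without that of number 4 they were -1.06 (unadjusted p = 0.234, limma) and -0.24. With array weights Retn was 0.28 and Fabp4 0.0011 higher in old control muscles, and with family in the fit Lep was 0.17 higher. The Adipoq difference was -0.33 with array weights. Lep differed by -0.33, Lipe by -0.20 and Fabp4 by -0.08 (Lep -0.0789 and Lipe -0.0397 without control young number 2), all with intervals that include 0, so that in the fit without weights or family none of the 5 was higher on average, against 46.9% of all genes. None of the 5 had an unadjusted p under 0.05, against 0.936% of all genes lower and 1.19% higher, and limma called 0% of genes (0.0468% with the replicate block).

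The difference between the genotype differences, at 22 months minus at 6 months, was 3.87 for Adipoq (SE 1.14, interval 1.44 to 6.29), 1.46 for Retn (SE 0.50, interval 0.41 to 2.52) and 0.83 for Lep (SE 0.35, interval 0.08 to 1.57). For Lep 11 of 16 fits that left out 1 array kept an unadjusted p under 0.05, against 16 of 16 for Adipoq and for Retn. All 3 had an adjusted p of 0.999859 in limma, and 0% of genes were called. Their unadjusted p-values were 0.00389, 0.00966 and 0.0320 in limma, and 0.608% of all genes were higher and 0.526% lower at an unadjusted p under 0.05. For Lipe the value was 0.42 (interval -0.21 to 1.05) and for Fabp4 0.12 (interval -0.07 to 0.32), all 5 being above 0 where 49.7% of all genes were. These comparisons share the arrays of the groups they have in common, so their values are not independent of each other. What sets the replicate number is not stated in the labels, so p-values measure the spread between these mice as labelled.

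**Figure D2:**
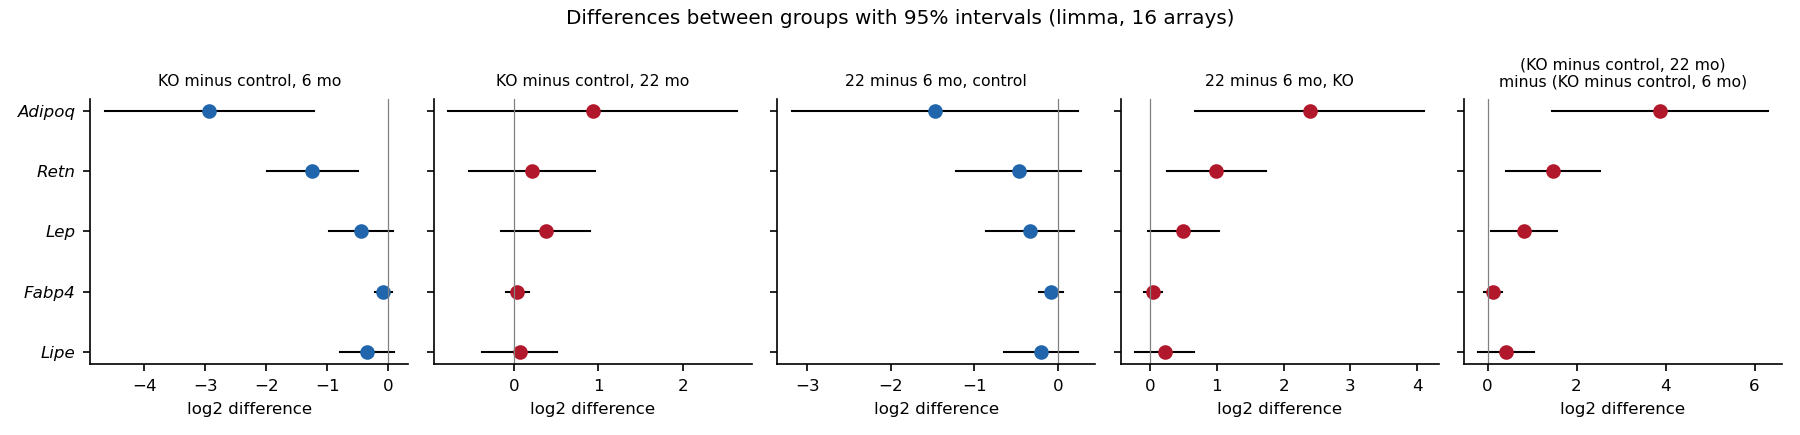
Log2 differences of the 5 measured genes with 95% intervals in 5 comparisons (limma over 16 arrays); blue points are below 0 and red points above, and the horizontal scales differ between panels. Adipoq is at -2.93 for KO minus control at 6 months and at 2.39 for 22 minus 6 months in KO mice, and the intervals of Fabp4 include 0 in every panel.

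The measured genes tended to move together from muscle to muscle, least so in the pairs with Lep. Adipoq and Retn had r = 0.893 and rho = 0.862 over 16 arrays (permutation p = 4e-05 for each, adjusted to 0.0004 over 10 pairs of genes). The permutations exchanged all 16 arrays freely, without regard to group or replicate number. Their p-values thus also take in differences between groups or numbers that both genes share. Without the 2 arrays farthest from the Adipoq median r was 0.862, with group means removed it was 0.800, and it was 0.934 within numbers 1 and 2 and 0.873 within numbers 3 and 4. The lowest of the 10 values was r = 0.479 for Retn and Lep (permutation p = 0.0575), and 0.253 with group means removed. Within numbers 3 and 4 Lep had r = 0.639 with Adipoq, 0.380 with Retn, 0.357 with Fabp4 and 0.295 with Lipe. Within numbers 1 and 2 these were 0.601, 0.565, 0.651 and 0.848. Adipoq and Lipe had r = 0.754, Adipoq and Fabp4 0.703 and Adipoq and Lep 0.627, with group means removed 0.712, 0.727 and 0.462. Fabp4 thus followed Adipoq in order although its range was 0.30 against 4.22 on the log2 scale.

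Most other markers of white fat cells were also lower in KO muscles at 6 months. Of 15 listed markers beyond the named genes, 12 were measured. In KO against control young muscles 10 of these were lower and 2 higher, where 47.8% of all genes were higher. Their median difference was -0.31, where the median of all genes was -0.01. None was called after adjustment in limma, and 5 were lower at an unadjusted p under 0.05. At that threshold 0.702% of all genes were lower and 1% higher, which also applies to the lists below in this comparison. Thrsp, a nuclear protein that promotes fat synthesis, averaged 7.76 ± 0.25 in KO young and 8.81 ± 0.38 in control young muscles (SD, n = 4 each). Its difference was -1.05 with no overlap, where 0.696% of all genes had all KO values below all control values. Cebpa, a transcription factor of fat cell differentiation, differed by -0.86, Sncg by -0.56, the activin-type receptor Acvr1c by -0.53 and the droplet galectin Lgals12 by -0.49. Pparg and Slc7a10 differed by -0.31 each, Car3 by -0.14, Pnpla3 by -0.13 and Gpd1 by -0.10. The 2 higher markers were Aqp7 (0.03) and Pck1 (0.01). The mean of the 12 markers lay between 6.28 and 6.42 in KO young muscles and between 6.49 and 6.98 in control young muscles. At 22 months it lay between 6.40 and 6.65 in KO muscles and between 6.40 and 6.77 in control muscles, overlapping. At that age 8 of 12 markers were higher in KO with a median of 0.12, where 48.4% of all genes were higher. Thrsp went the other way, with -0.54. Nnat, Orm1 and Adrb3 had no probe set with 1 symbol.

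The genotype difference of these markers was then compared between ages. Of the 12, 9 had a higher genotype difference at 22 than at 6 months and 3 a lower one, with a median of 0.42, where 49.7% of all genes had a higher one. At an unadjusted p under 0.05 in limma 5 were higher, against 0.608% of all genes, while none was called. The 5 were Cebpa (1.32), Sncg (0.95), Acvr1c (0.74), Lgals12 (0.68) and Pparg (0.50), the last being the nuclear receptor that drives fat cell formation. In the 5 measured brown fat markers the median at 6 months was -0.42, with 5 of 5 lower in KO and none at an unadjusted p under 0.05. Ucp1, the uncoupling protein of brown fat, averaged 4.72 ± 0.25 in KO young and 5.14 ± 0.91 in control young muscles (SD, n = 4 each), which overlap.

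Among 13 measured factors that fat tissue also secretes, 11 were lower and 2 higher in KO young muscles (median -0.11), with none called in limma and 1, Rbp4, lower at an unadjusted p under 0.05. Rbp4, the retinol carrier of blood, averaged 5.41 ± 0.10 in KO young and 6.28 ± 0.66 in control young muscles (SD, n = 4 each), a difference of -0.87. In KO mice 9 of the 13 were higher at 22 than at 6 months (median 0.16), and 5 of them at an unadjusted p under 0.05: Retnla, Rbp4, Apoe, Angptl4 and Lcn2, against 1.34% of all genes. In control mice 8 of the 13 were lower at 22 than at 6 months (median -0.11), while Apoe was higher in both genotypes, by 0.76 in KO and 0.83 in control mice. Retnla, a relative of resistin that alternatively activated macrophages also make, averaged 8.13 ± 0.20 in KO old and 7.07 ± 0.47 in KO young muscles (SD, n = 4 each), a difference of 1.06 (adjusted p = 0.344, limma). It was also 0.61 higher in KO old than in control old muscles. The 11 macrophage markers were all higher at 22 than at 6 months in both genotypes, with medians of 0.52 in KO and 0.67 in control mice, and their mean lay between 6.02 and 6.64 in KO old and between 5.37 and 6.28 in KO young muscles. Their part in the Retnla and Apoe differences was not tested.

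Most genes of fatty acid synthesis were also lower in KO young muscles. Of 10 measured genes 8 were lower and 2 higher (median -0.49), none called in limma. At an unadjusted p under 0.05, 3 were lower and 1 higher, against 0.702% and 1% of all genes. Scd1, which desaturates stearate, averaged 8.08 ± 0.49 in KO young and 9.68 ± 1.08 in control young muscles (SD, n = 4 each), a difference of -1.59. Fasn, the fatty acid synthase, averaged 6.45 ± 0.15 in KO young and 7.44 ± 0.90 in control young muscles (SD, n = 4 each), a difference of -0.996. Thrsp is in this list too. Elovl5, an elongase of polyunsaturated fatty acids, went the other way with 0.37. In control mice 9 of the 10 were lower at 22 than at 6 months (median -0.34), with Scd1 at -1.33 and Thrsp at -0.63.

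**Figure D3:**
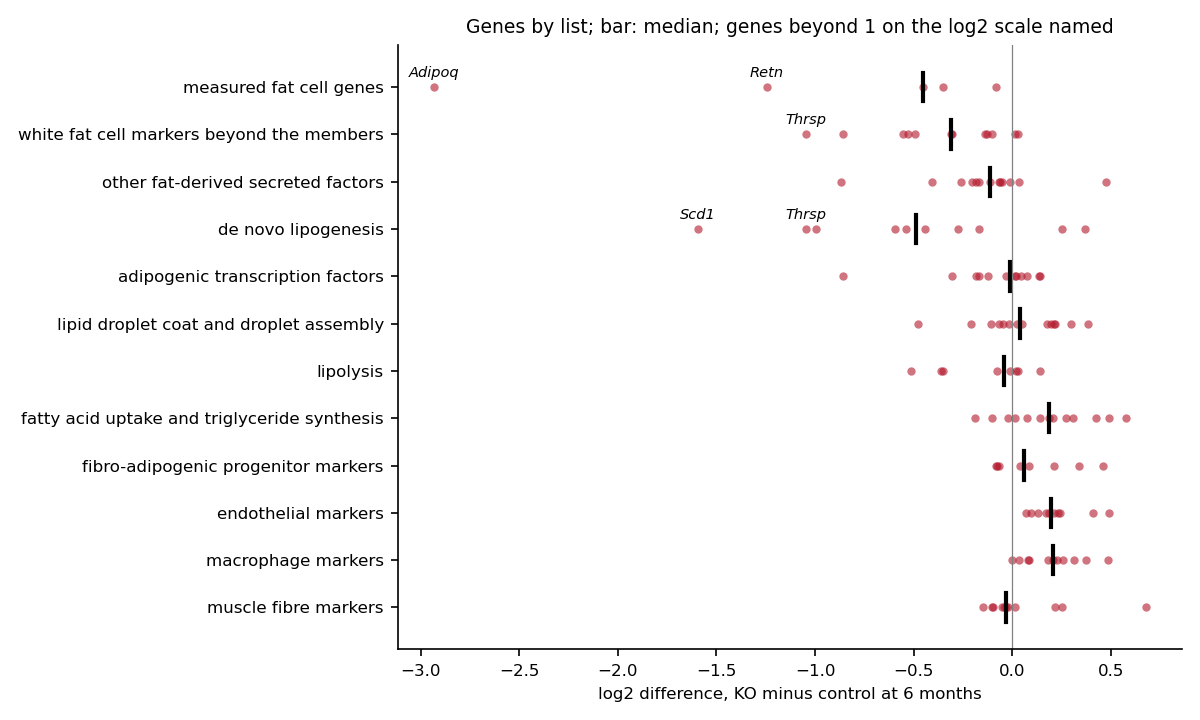
Log2 differences of KO minus control at 6 months, 1 point per gene, for the measured fat cell genes and 11 other gene lists; the black bar is the median of a list and genes beyond 1 on the log2 scale are named. Adipoq (-2.93), Scd1 (-1.59), Retn (-1.25) and Thrsp (-1.05, in 2 lists) lie farthest to the left, and the medians of endothelial (0.20) and macrophage markers (0.20) lie right of 0.

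Droplet proteins that muscle and other cells express showed no common direction. Of 14 measured genes of the droplet coat and of droplet assembly, 8 were higher and 6 lower in KO young muscles (median 0.04), with none called and none at an unadjusted p under 0.05 in limma. Plin2, the coat protein of most non-fat cells, averaged 7.57 ± 0.19 in KO young and 7.55 ± 0.25 in control young muscles (SD, n = 4 each). Plin5, which joins droplets to mitochondria in oxidative tissue, averaged 7.72 ± 0.59 in KO young and 7.33 ± 1.20 in control young muscles (SD, n = 4 each). Plin3 differed by 0.30 and Plin4 by -0.11. Cidea, a relative of Cidec best known from brown fat, differed by -0.48 (unadjusted p = 0.0984, limma). At 22 months the median was -0.01, with Plin2 at 0.40 (KO minus control).

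Of 8 genes of fat breakdown beside Lipe, 5 were lower and 3 higher in KO young muscles (median -0.04), none called in limma, with 1, the protein kinase A subunit Prkar2b, lower at an unadjusted p under 0.05 (-0.51). Pnpla2, the triglyceride lipase that acts before Lipe, averaged 4.97 ± 0.19 in KO old, 5.28 ± 0.16 in control old, 5.09 ± 0.25 in KO young and 4.95 ± 0.19 in control young muscles (SD, n = 4 each). Its genotype difference was -0.31 at 22 months and 0.14 at 6 months. Of 13 genes of fatty acid uptake and triglyceride synthesis, 10 were higher and 3 lower in KO young muscles (median 0.19), none called, with Lpl, the lipoprotein lipase, 0.49 higher at an unadjusted p under 0.05. Fabp3, the fatty acid carrier of muscle, differed by 0.43, and Fabp5 by 0.31, while Fabp4 differed by -0.08.

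The receptors of these hormones differed little on average. Of 8 measured receptors and signalling partners 4 were higher and 4 lower in KO young muscles (median 0.01), with none called and none at an unadjusted p under 0.05 in limma. The adiponectin receptors Adipor1 and Adipor2 differed by -0.10 and -0.02, the adiponectin-binding cadherin Cdh13 by -0.04 and the leptin receptor Lepr by -0.19. Of 12 transcription factors of fat cell formation 6 were higher and 6 lower (median -0.01), none called, with Cebpa lower at an unadjusted p under 0.05. Markers of fibro-adipogenic progenitors, the stromal cells of muscle that can become fat cells, had a median of 0.06 with 5 of 8 higher, endothelial markers a median of 0.20 with 10 of 10 higher and macrophage markers a median of 0.20 with 11 of 11 higher. Muscle fibre markers had a median of -0.03 with 4 of 11 higher. In KO young muscles, where Adipoq and Retn were lower, the medians of endothelial, macrophage and progenitor markers were not lower. None of the genes in these lists was called, and whether the cell content of the muscles differed was not tested. The 3 measured nerve sheath markers had a median of 0.44 with 3 of 3 higher, led by the myelin protein gene Pmp22 (0.60, unadjusted p = 0.107, with the replicate block unadjusted p = 7.16e-05 and adjusted p = 0.298, limma). Their part in the results was not tested.

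Across the 16 arrays Adipoq was set against the mean of each of 16 lists, with permutations that again ignored group and replicate number. It followed the white fat cell markers (r = 0.823, rho = 0.868, permutation p = 8e-05 for each, adjusted to 0.00128 over 16 lists), the other secreted factors (r = 0.786, adjusted permutation p = 0.002), fatty acid synthesis (r = 0.749, adjusted permutation p = 0.00299) and lipolysis (r = 0.624, adjusted permutation p = 0.0451). For the white fat cell markers r was 0.803 without the 2 arrays farthest from the Adipoq median, 0.692 with group means removed, and 0.855 within numbers 1 and 2 and 0.781 within numbers 3 and 4. The values for the droplet coat (r = 0.368), fibro-adipogenic progenitors (r = 0.240), macrophages (r = 0.271) and endothelium (r = 0.048) had adjusted permutation p-values of 0.296, 0.444, 0.408 and 0.896. With group means removed these 4 values were 0.554, 0.618, 0.529 and 0.314, closer to the 0.692 of the white fat cell markers. The other secreted factors (0.846) and fatty acid synthesis (0.807) were then above the white fat cell markers. Lipolysis (0.690) and the receptors and signalling partners (0.651) were near them. Muscle fibre markers had r = -0.505 (adjusted permutation p = 0.119).

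**Figure D4:**
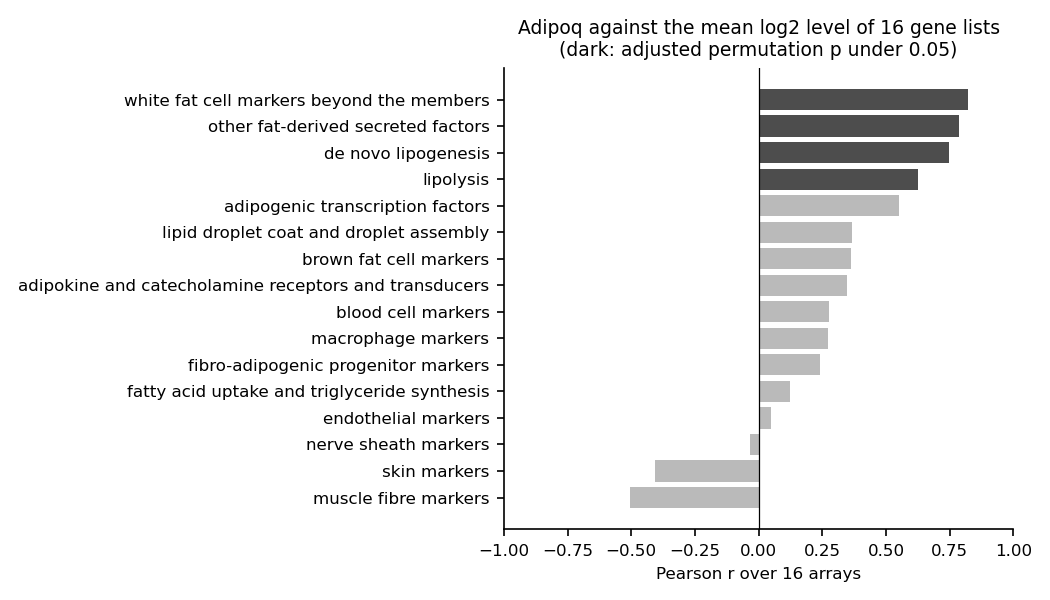
Pearson r over 16 arrays between the level of Adipoq and the mean log2 level of each of 16 gene lists; dark bars have an adjusted permutation p under 0.05. White fat cell markers (0.823), other secreted factors (0.786), fatty acid synthesis (0.749) and lipolysis (0.624) are dark, and muscle fibre markers are at -0.505.

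The genes most like the 5 measured ones were found by Pearson r with the mean of their standardised levels over 16 arrays, once with group means removed and once before, taking the 10 highest of 17092 genes each time. This gave 13 genes, of which 7 were in both selections. Hp, which encodes the haemoglobin-binding plasma protein haptoglobin, came first in both, with r = 0.925 after and 0.947 before removal of group means. It averaged 6.21 in KO old, 5.68 in control old, 4.63 in KO young and 6.65 in control young muscles. Trarg1, a regulator of glucose transporter traffic (r = 0.907), Cebpa (r = 0.898) and Rbp4 (r = 0.892) followed after removal of group means. Then came Hacd2 (0.887), Car5b (0.884), Nnmt (0.878), Acp5 (0.877), Frmd4b (0.866) and Aoc3 (0.858), and before removal Ifi27l2a (0.905), Cdo1 (0.886) and Tmem45b (0.883) entered the selection. Ifi27l2a had r = 0.965 with Adipoq alone. These values describe a choice of the highest among all genes and carry no test.

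**Figure D5:**
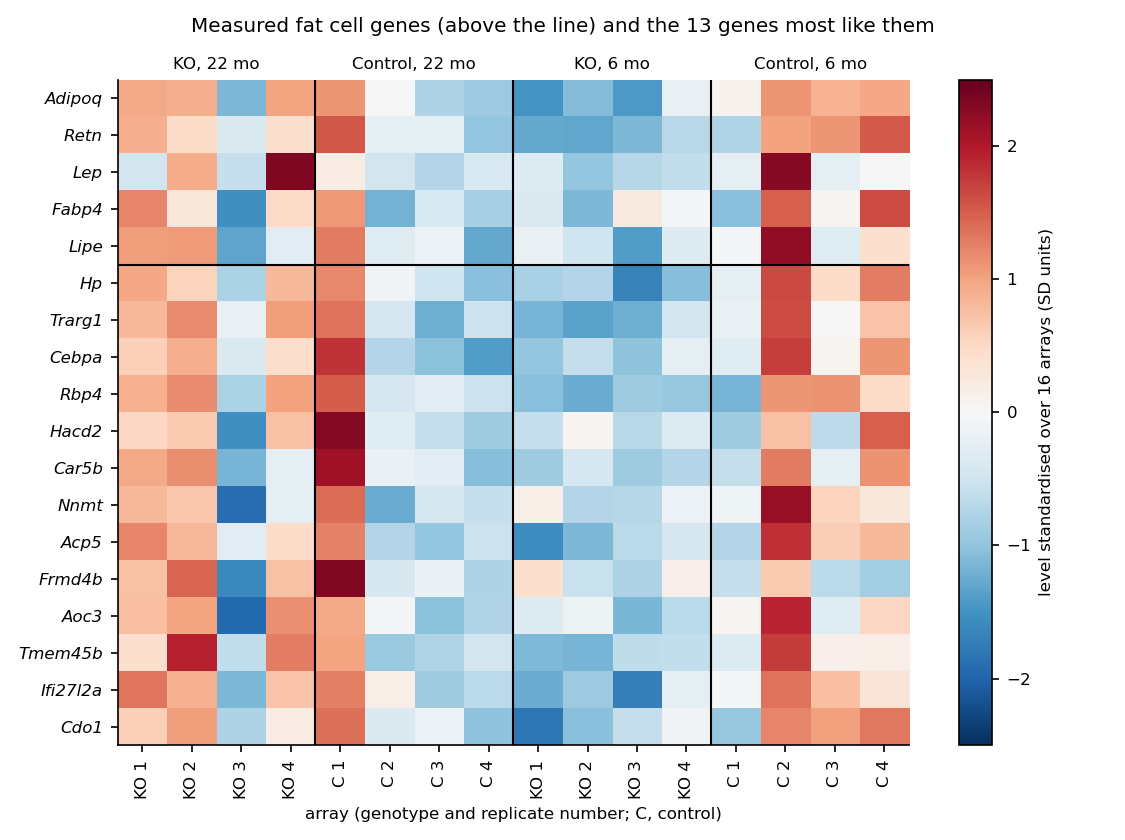
Levels of the 5 measured fat cell genes (above the line) and of the 13 genes most like them in each of 16 arrays, standardised per gene over the arrays (SD units; red above and blue below the mean of the gene). KO old number 3 and the KO young arrays are mostly blue, while control old number 1 and control young number 2 are red in nearly all rows.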

How the data were processed

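The authors deposited 1 log2 value per probe set and array, made with RMA and the affy package per the submitters' processing notes, with versions not given; per the labels' protocols, 25 ng of total RNA was amplified and biotin labelled. RMA includes background correction, quantile normalization and a median polish over probes, so a uniform shift of an array is removed before deposit. All 16 columns were used, and their number limits the precision. Of 45037 probe sets besides 104 control probe sets, 28898 carried 1 gene symbol, 551 several and 15588 none; a gene was read from its brightest such probe set on average, which gave 17097 genes with no filter on level.

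Groups were compared with limma 3.58.1 (R 4.3.3, lmFit and eBayes with trend), 1 mean per group over 16 arrays, two-sided, with Benjamini-Hochberg adjustment over all genes and a threshold of 0.05; the steps were tested on simulated data. The replicate number was left out of this fit and entered as a block only where stated. After removal of group means, 24 same-numbered pairs from different groups correlated between 0.289 and 0.780 (median for other numbers -0.455). SEs, intervals and p-values given without mention of the block do not take this likeness into account. With the number as a block the median SE of the genotype comparison at 6 months was 0.0923 instead of 0.157. Correlations over arrays used 100000 permutations that ignored group and replicate number (SciPy 1.17.1). Figures used matplotlib 3.10.9.

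The genes and lists were chosen with earlier results of these data known. Named were all members, up to 4 genes of smallest p per list and comparison, and 8 relatives of the members (Plin2 to Plin5, Fabp3, Fabp5, Cidea, Pnpla2). Ucp1, the receptors, the fifth gene of a list and the remaining white fat cell markers were chosen after their values were seen. Alternatives were the replicate block, family, array weights, no trend, another gene summary, renewed quantile normalization, a filter on level, the 2 groups alone and leaving out each array. Family with the block, and leaving out arrays with the block, were chosen after seeing the data. Promoter windows came from RefSeq, with entries for 7 of the 8 genes.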

Additional observations from a re-analysis of the deposited data

Results flagged for a closer look

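Among 20 sets of 4 muscles (5 genes in 4 groups) checked for a value far from the other 3, in which chance alone marks about 1 in 20, 2 stood out. Adipoq in the KO old muscle of number 3 was 5.16, while the other KO old muscles lay between 8.46 and 8.60. The same array had the lowest Fabp4 value of all 16 (10.96) and an Mfn2 level of 6.32. Without it, Adipoq differed by 1.78 between KO and control at 22 months and by 3.24 between 22 and 6 months in KO mice. Lep in the control young muscle of number 2 was 4.56, while the other control young muscles lay between 3.52 and 3.62. That array also had the highest Lipe value of all 16 (7.53). Without it, the Lep difference of KO minus control at 6 months was -0.20.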

How the results depend on the processing

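No measured fat cell gene was called in any of the 5 comparisons, under any alternative that was run. The replicate block changed no call of a measured gene, leaving 0 called in each comparison. It cannot change a difference, since every group holds every number. The Adipoq difference of KO minus control at 6 months stayed -2.93, with an SE of 0.72 instead of 0.81 (adjusted p = 0.345, limma). Of the differences recomputed with all 16 arrays or both compared groups, 203 kept their direction and 12 turned. The block, no trend, the filter on level and the 2 groups alone leave a difference unchanged by construction. So does the mean of all probe sets for Adipoq, Retn and Lep, which have no further probe set with only their own symbol. Those among the 203 could therefore not turn. With the mean of all probe sets Fabp4 was 0.0769 for KO minus control at 6 months, 0.0420 for 22 minus 6 months in control mice and -0.0261 for the difference between the genotype differences. With array weights, 22 minus 6 months in control mice was 0.28 for Retn and 0.0011 for Fabp4. With family in the fit, KO minus control at 22 months was -0.12 for Retn, -0.0134 for Fabp4 and -0.0678 for Lipe, 22 minus 6 months was 0.17 for Lep in control mice and -0.0601 for Lipe in KO mice. With family and replicate block together, chosen after seeing the data, the last 2 were 0.12 and -0.0091. The cause was not tested.

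Leaving out 1 array at a time gave -3.40 to -2.69 for Adipoq and -1.58 to -1.06 for Retn (KO minus control at 6 months), 2.09 to 3.24 for Adipoq in KO mice (22 minus 6 months) and 3.45 to 4.71 for the Adipoq difference between the genotype differences. At 22 months KO minus control ranged from 0.52 to 1.78 for Adipoq, from -0.0119 to 0.56 for Retn (-0.11 to 0.65 with the block) and from -0.0468 to 0.22 for Lipe (-0.0389 to 0.19 with the block, where it was -0.0372 without control old number 4), so the last 2 have no stable direction. Lep lay below the median signal in every array, left no value once dim genes were dropped, and this limits what its differences can show.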
